A study of Sus scrofa with 12 samples.

Results

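The mitochondrial ribosome and the protein import machinery of the organelle were followed here in the skeletal muscle of newborn pigs. The members are the genes whose symbols begin with MRPL, MRPS, TIMM or TOMM, and they were chosen by name and not by their values. They number 77 of the 6790 genes that the array reads with a probe set of 1 symbol. Of these, 37 are MRPL genes, named for the large ribosomal subunit, 22 are MRPS genes, named for the small subunit, 11 are TIMM genes and 7 are TOMM genes. The subunit groups below follow the symbols alone, and not every MRPS gene encodes a small subunit protein. A probe set is a group of short probes for 1 transcript, and where a gene had several, the one with the highest mean log2 signal over the 12 arrays stood for it. Of the 77 genes, 76 passed the filter on low signals. The exception was TOMM34, a cytosolic co-chaperone despite its name, whose signals lay between 16.1 and 126.1.

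Muscle was taken at 4 ages, namely on the day of birth (day 0, the first 24 hours) and at day 7, day 14 and day 21, with 3 biological replicates per age and 1 Affymetrix array per replicate. No treatment, genotype, breed, sex or muscle is given in the labels, and the ages are the only groups. The labels call the replicates biological without saying which animals they came from, so p-values measure the spread between these samples. In whole muscle, a smaller share of cells of one type and less RNA per cell cannot be told apart.

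Mitochondria carry their own ribosome, which translates the few proteins encoded by mitochondrial DNA, all of them core parts of the respiratory chain and ATP synthase. Its protein subunits are encoded in the nucleus, made in the cytosol and imported. Imported proteins cross the outer membrane through the TOM complex. From there the small TIM chaperones of the intermembrane space carry hydrophobic proteins to the TIM22 complex, and the TIM23 complex with its motor takes proteins with a cleavable presequence into the matrix. Skeletal muscle leans on this machinery for its mitochondria, and newborn pigs, which lack brown fat, rely on muscle for heat.

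Signals are MAS5 signals on a linear scale, and a change is the mean log2 signal of the later age minus that of the earlier one (± SE, n = 3 arrays at each age). P-values are limma's, adjusted by the Benjamini-Hochberg method across the 14399 tested probe sets, and a gene is called at an adjusted p of 0.05. Levels of different genes are not compared with each other. All arrays share a trimmed mean of 500.1, and their median signals lay between 146.2 and 172.6. Of the control measures, the 18S ribosomal RNA probe sets overlapped, at 9.78 to 11.03 (log2 signal) at day 0 and 10.45 to 11.27 later. In the measures that follow, the day 0 arrays differed from the later ones. The poly-A spike-in RNAs, which report on labelling, had a log2 ratio of 3' to 5' signal of 0.52, 1.49 and 0.51 at day 0 and of 0.06 to 0.49 later. The hybridization controls, added in fixed amount, averaged 12.09 to 12.26 (log2 signal) at day 0 and 12.4 to 12.79 later, and the 28S ribosomal RNA probe sets 11.04 to 11.89 against 12.08 to 12.79. These measures move with the day 0 group, and their part in the results was not tested; main counts are also given with the poly-A ratio as a covariate and with signals rescaled to the hybridization controls.

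The genes of the mitochondrial ribosome and of protein import were mostly highest at birth. Between day 0 and day 21, 60 of the 76 tested members had a lower mean (78.9%, against 48.5% of all probe sets tested), and their median change was -0.29, against 0.02 for all probe sets. Of the members, 11 fell at the limma threshold (14.5%, against 4.9% of all probe sets) and 1 rose (1.32%, against 6.61%). The 3 day 21 arrays all lay below the 3 day 0 arrays for 27 members (35.5%, against 13.7% of probe sets) and all above for 2 (2.63%, against 15.3%). All 9 later arrays lay below day 0 for 18 members (23.7%, against 7.15%) and above for 1 (1.32%, against 7.44%). Day 0 had the highest mean of the 4 ages for 58 members, and day 21 for 13. The lowest mean fell at day 14 for 41 members and at day 7 for 21. No share over all probe sets was computed for the highest and lowest ages, so these counts stand without a background. Within an age the median SD of the members was 0.23 log2 units, against 0.33 for all probe sets.

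**Figure D1:**
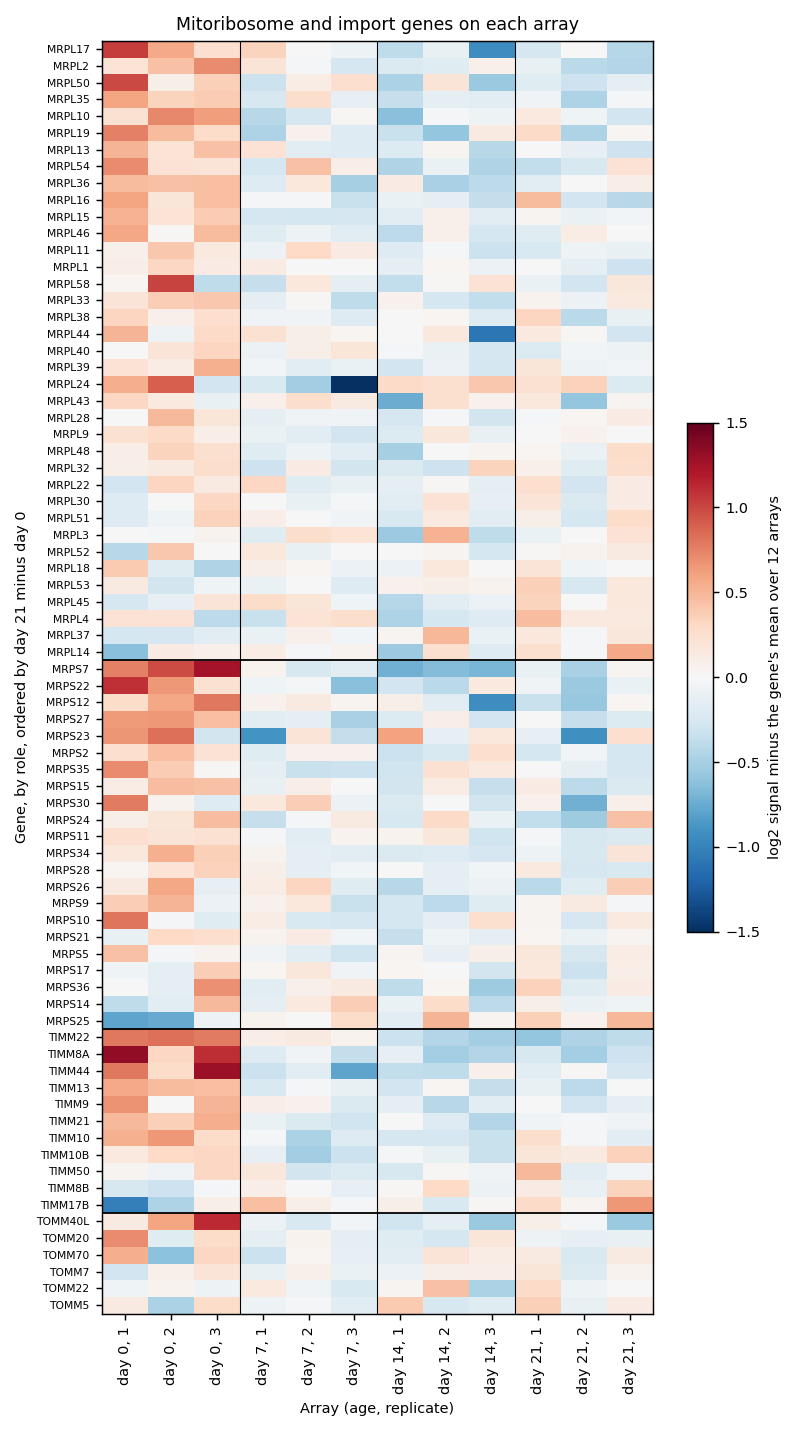
Log2 signal of each of the 76 tested members (rows, grouped by large subunit, small subunit, TIMM and TOMM, and ordered by the day 21 minus day 0 change) on each of the 12 arrays (columns), less the gene's mean over the arrays. Red is above and blue below that mean. The 3 day 0 columns are red for most genes, and 58 genes have their highest mean there, a count without a background over all probe sets.

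Averaged over all tested members, the deviation from each gene's 12-array mean was 0.26, 0.22 and 0.27 log2 units on the day 0 arrays. It was -0.06, -0.01 and -0.14 at day 7, -0.19, -0.04 and -0.19 at day 14, and 0.05, -0.18 and 0.01 at day 21. The 3 day 0 arrays thus lay above all 9 later ones and close to each other. For the TIMM genes the day 0 values were 0.37, 0.21 and 0.51 and the later ones lay between -0.24 and 0.02. For the TOMM genes the day 0 values were 0.20, -0.09 and 0.35, so that day 0 replicate 2 lay among the later arrays. Over the same arrays, the mean deviation of all tested probe sets ran from -0.07 to -0.01 at day 0.

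The members' median change between day 0 and day 21 was -0.31 relative to all probe sets, and it stood at -0.31 under median centring and under scaling on the hybridization controls too, since those settings move every probe set. Under quantile normalization, which can alter this value, it was -0.23, with 11 members called and 11.4% of all probe sets. Scaling on these controls shifted the median of all probe sets from 0.02 to -0.36, and the split of calls over all probe sets from 952 higher and 705 lower to 397 higher and 2486 lower. The members' calls went from 1 higher and 11 lower to 0 higher and 43 lower. With median centring the split over all probe sets was 739 higher and 1032 lower. With the poly-A ratio as a covariate the median of the members stayed at -0.29, and 7 of them were called in place of 12, while the share called in either direction over all probe sets went from 11.5% to 5.85%. The number of members called depended on single arrays, with 7 without day 21 replicate 1, 5 without replicate 2 and 4 without replicate 3. In these fits the shares over all probe sets were 6.1%, 8.94% and 5.48%. As shares of the tested members, the counts without replicate 2 or 3 lay below these. The number with a lower mean ran from 52 to 64 over the 12 fits that each left out 1 array.

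The 37 genes of the large subunit had a median change of -0.28 between day 0 and day 21, with 28 of them lower, 3 called lower and none called higher. MRPL17, a large subunit protein with a bacterial counterpart, gave 4937.4, 3562.3 and 2867.1 at day 0, 3033, 2411.5 and 2289.9 at day 7, 1846.3, 2240.7 and 1257.8 at day 14, and 2015.6, 2395.4 and 1797.2 at day 21. Day 0 and day 21 did not overlap, and the change was -0.85 ± 0.24 (adjusted p = 0.0368). MRPL2, which lies near the peptidyl transferase centre, gave 2132.2, 2519.8 and 3016 at day 0 and 1726.3, 1401 and 1368.5 at day 21, and none of its 9 later arrays reached day 0. It fell by 0.76 ± 0.18 (adjusted p = 0.0175). MRPL35 also lay lower on all later arrays, with 2806.5, 2341.1 and 2403.8 at day 0 and 1786.2, 1342 and 1805.1 at day 21, a change of -0.62 ± 0.18 (adjusted p = 0.0387).

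Apart from MRPL50, all other large subunit genes had smaller falls than these, or rises. MRPL50, a subunit specific to mitochondria, was at -0.69 ± 0.28 without being called (adjusted p = 0.126). The 4 largest positive values belonged to MRPL14 (0.41 ± 0.24), MRPL37 (0.33 ± 0.16), MRPL4, which lines the exit tunnel (0.24 ± 0.24), and MRPL45, which ties the tunnel exit to the inner membrane (0.22 ± 0.17), and none was called (adjusted p from 0.21 to 0.549). MRPL37 was the 1 member with all 9 later arrays above day 0, at 2113.1, 2156.2 and 2267.8 on day 0 and 2378.5 to 3590.5 later. MRPL51 had the smallest change (0.00 ± 0.18).

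The day 21 calls of the large subunit depended on single arrays. That on MRPL17 ended under 9 of 24 alternatives, among them leaving out day 0 replicate 1 or 2, day 7 replicate 2 or day 21 replicate 1 or 3, where the change was -0.87 to -0.64, and its adjusted p ran from 0.00728 to 0.13 over all alternatives. That on MRPL2 ended under 3, without day 21 replicate 2 (-0.72) or 3 (-0.70) or with only the compared ages fitted, with an adjusted p from 0.00277 to 0.074. That on MRPL35 ended under 14, among them leaving out day 0 replicate 1 or 2, day 7 replicate 3, day 14 replicate 2 or 3, or any day 21 array (-0.70 to -0.48), with an adjusted p from 0.00532 to 0.246.

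Of the 22 MRPS genes, grouped here as the small subunit, 21 had a lower mean at day 21 than at day 0. Their median change was -0.39, with 4 called lower and 1 called higher. MRPS7, which helps form the head of the subunit, had one of the deepest falls of all members. Its signals were 492.7, 570.5 and 689.9 at day 0, 302.8, 246.1 and 257.4 at day 7, 176.6, 185.6 and 180.5 at day 14, and 268.1, 207.5 and 300.9 at day 21. Every later array lay below every day 0 array, and the change to day 21 was -1.18 ± 0.21 (adjusted p = 0.00447), a call kept under all 24 alternatives (adjusted p from 0.000981 to 0.0354). MRPS27, a subunit specific to mitochondria, went from 1924.6, 1939.4 and 1681 to 1246.5, 970.2 and 1071.6 and fell by 0.76 ± 0.17 (adjusted p = 0.015). MRPS22, also specific to mitochondria, went from 1836.9, 1355.8 and 1011.4 to 832.2, 583 and 800.8, a change of -0.90 ± 0.26 (adjusted p = 0.0373). MRPS12, part of the decoding centre, went from 988.8, 1217.4 and 1407.8 to 646.1, 553.8 and 832.8, a change of -0.84 ± 0.25 (adjusted p = 0.0476). In these 3 genes too, no later array reached the day 0 range.

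MRPS25, another subunit found only in mitochondria, was the 1 member called higher at day 21. Its signals were 1375.3, 1411.9 and 2262 at day 0, 2495, 2380 and 2900.7 at day 7, 2121.7, 3404.6 and 2459.6 at day 14, and 3051.2, 2508.1 and 3383.1 at day 21. Day 0 replicate 3 lay above day 14 replicate 1, and the day 21 arrays lay clear of day 0. The change was 0.85 ± 0.22 (adjusted p = 0.0271). The call ended under 7 of 24 alternatives, among them scaling on the hybridization controls (0.47) and leaving out day 0 replicate 1 or 2 or day 21 replicate 1 or 3 (0.73 to 0.83), with an adjusted p from 0.00546 to 0.123. At day 7 the change of MRPS25 was 0.66 ± 0.22 (adjusted p = 0.0853), and it was called when day 0 replicate 3 was left out (0.89), with an adjusted p from 0.0172 to 0.387 over the alternatives. The next values in the small subunit were close to 0, namely MRPS14 (0.00 ± 0.23), MRPS17 (-0.08 ± 0.19) and MRPS36 (-0.08 ± 0.24), which is now counted as a part of 2-oxoglutarate dehydrogenase and not of the ribosome.

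Of the falls in the small subunit, the call on MRPS27 ended under 4 of 24 alternatives, among them leaving out day 21 replicate 2 (-0.67) or 3 (-0.75), with an adjusted p from 0.00223 to 0.0696. The call on MRPS22 ended under 9, among them leaving out day 0 replicate 1 or 2 or any day 21 array (-0.99 to -0.68), with an adjusted p from 0.00767 to 0.118. The call on MRPS12 ended under 17, among them leaving out day 0 replicate 2 or 3, any day 7 array, day 14 replicate 2 or any day 21 array (-1.0 to -0.70), with an adjusted p from 0.00533 to 0.195. Subunits with a bacterial counterpart and subunits specific to mitochondria, classes set after the values were seen, had median changes of -0.29 (29 of 33 lower) and -0.28 (19 of 25 lower).

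**Figure D2:**
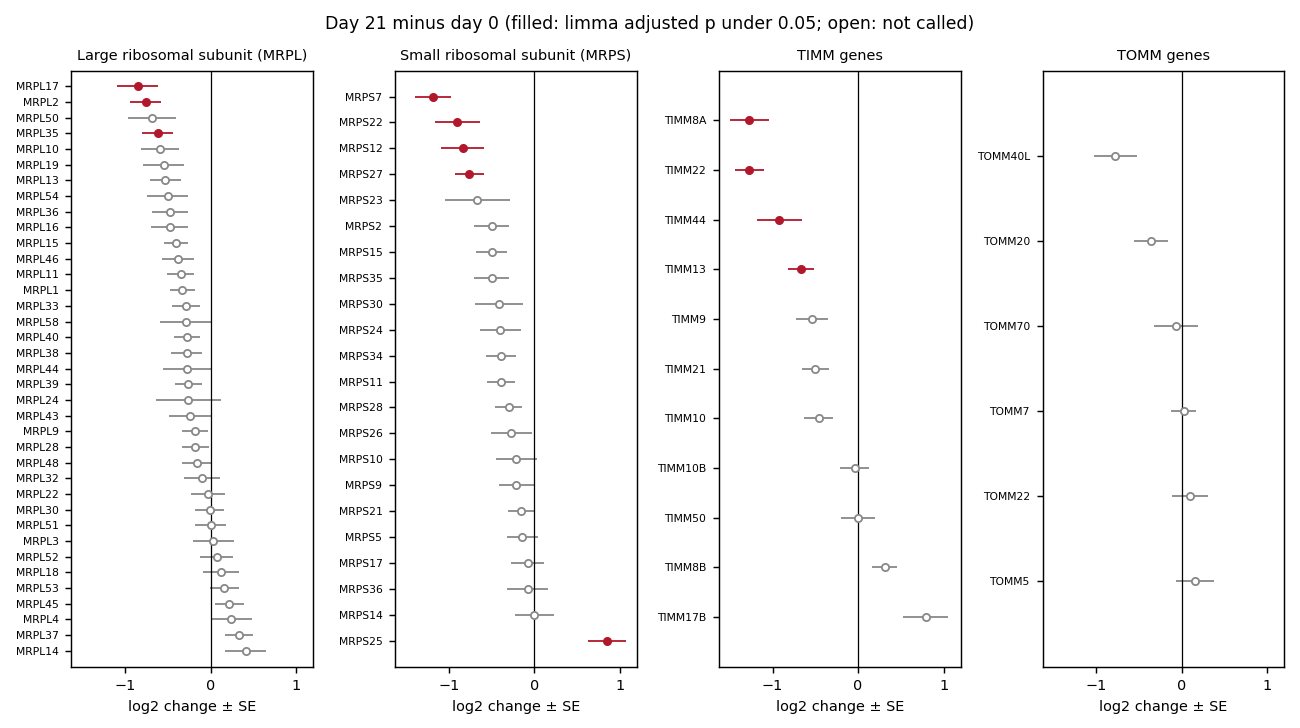
Change in log2 signal from day 0 to day 21 ± SE (limma, n = 3 arrays per age) for each tested member, in 4 panels by role; filled red points passed an adjusted p of 0.05 and open grey points did not. In the MRPS panel 21 of 22 points lie below 0 and MRPS25 stands alone at 0.85. In the TOMM panel no point is filled.

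Among the TIMM genes 8 of 11 had a lower mean at day 21, with a median of -0.50 and 4 called lower. TIMM22, the channel of the translocase that inserts carrier proteins into the inner membrane, had one of the deepest falls. It gave 569.6, 581.9 and 561.2 at day 0, 351.2, 360.5 and 339 at day 7, 260.8, 242.3 and 229.7 at day 14, and 220.4, 238.3 and 251.2 at day 21. The day 0, day 7 and day 14 ranges lay clear of each other in descending order, and the day 14 and day 21 ranges overlapped. The change to day 21 was -1.27 ± 0.17 (adjusted p = 0.00104), with the call kept under all 24 alternatives (adjusted p from 0.000693 to 0.0181).

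The small TIM chaperones TIMM8A and TIMM13 work as a pair in the intermembrane space. TIMM8A gave 3593.3, 1765.4 and 3085.4 at day 0, 1253.9, 1376.6 and 1122.5 at day 7, 1312.5, 1004.2 and 1051 at day 14, and 1205.5, 1001.5 and 1152.5 at day 21. Day 0 replicate 2 was low among the day 0 arrays and still above all later ones. Its change to day 21 was -1.27 ± 0.23 (adjusted p = 0.00517), again kept under all 24 alternatives (adjusted p from 0.00184 to 0.0387). TIMM13 gave 4755.2, 4464.5 and 4404.4 at day 0 and 2969.8, 2456.3 and 3187.9 at day 21, a change of -0.67 ± 0.15 (adjusted p = 0.0149). That call ended under 3 alternatives, among them leaving out day 21 replicate 2 (-0.56), with an adjusted p from 0.00166 to 0.0718. TIMM8B, the close relative of TIMM8A, had signals of 11364.8, 10834.3 and 13088 at day 0 and 14594.5, 12411 and 16886.7 at day 21, which overlapped, and its change was 0.31 ± 0.15 (adjusted p = 0.205).

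TIMM9 and TIMM10 form the other small TIM complex. TIMM9 changed by -0.54 ± 0.19 at day 21 (adjusted p = 0.0811) and TIMM10 by -0.46 ± 0.17 (adjusted p = 0.103). TIMM9 was called when day 0 replicate 2 was left out (-0.73), and its adjusted p ran from 0.0131 to 0.207. TIMM10B, a relative bound to the TIM22 complex, was at -0.04 ± 0.17 on day 21. Over the 6 small TIM genes the median was -0.50, with 5 lower and 2 called lower.

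Of the TIM23 complex and its motor 4 genes were measured, with a median of -0.25. TIMM44, which anchors the matrix chaperone of the import motor to the channel, gave 817.3, 569.8 and 1140.9 at day 0, 378.5, 418.6 and 270.1 at day 7, 365.8, 360.7 and 493.5 at day 14, and 418.5, 479 and 395 at day 21. All later arrays lay below day 0, whose own arrays differed widely, and the change to day 21 was -0.92 ± 0.26 (adjusted p = 0.037). The call ended under 11 of 24 alternatives, among them leaving out day 0 replicate 1 or 3 or any day 21 array (-0.99 to -0.67), with an adjusted p from 0.00805 to 0.117. TIMM21, which links the TIM23 complex to the respiratory chain, gave 1197.7, 1094.8 and 1255.9 at day 0 and 824.8, 849.1 and 825 at day 21, ranges that did not overlap, with a change of -0.50 ± 0.16 (adjusted p = 0.0607). TIMM50, the presequence receptor, was at 0.00 ± 0.20. TIMM17B, a channel subunit, gave 494.8, 729.5 and 1074.3 at day 0 and 1228.3, 1036.5 and 1583.7 at day 21, which overlapped, and its change of 0.79 ± 0.26 was not called (adjusted p = 0.0657). It was called without day 0 replicate 3, the high one of its day 0 arrays (1.07), and its adjusted p ran from 0.0122 to 0.239.

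None of the 6 tested TOMM genes was called in any comparison with limma, although TOMM40L passed an unadjusted p of 0.05 at day 7 and day 21, and their median change to day 21 was -0.02, with 3 of 6 lower. With quantile normalization 4 of 6 were lower and the median was -0.06, and with scaling on the hybridization controls 6 of 6 were lower, 2 of them called. TOMM20, the receptor for presequences, gave 5467.8, 2958.1 and 4059.8 at day 0 and 3196.5, 3075.3 and 3136.6 at day 21, which overlapped (-0.36 ± 0.20, adjusted p = 0.263). With the poly-A ratio as a covariate it was called (-0.68), and its adjusted p ran from 0.0442 to 0.658. TOMM22, the central receptor, had a change of 0.10 ± 0.21. TOMM70, the receptor for carrier proteins, had a change of -0.07 ± 0.26. The small subunits TOMM5 and TOMM7 had changes of 0.15 ± 0.22 and 0.02 ± 0.15. TOMM40L, a paralogue of the pore protein, was the 1 TOMM gene with all later arrays below day 0, at 883.9, 1221.3 and 1742.9 on day 0 and 546.5 to 855.5 later, a change of -0.78 ± 0.25 (adjusted p = 0.0559). It was called without day 0 replicate 1 (-1.02), and its adjusted p ran from 0.0104 to 0.203.

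**Figure D3:**
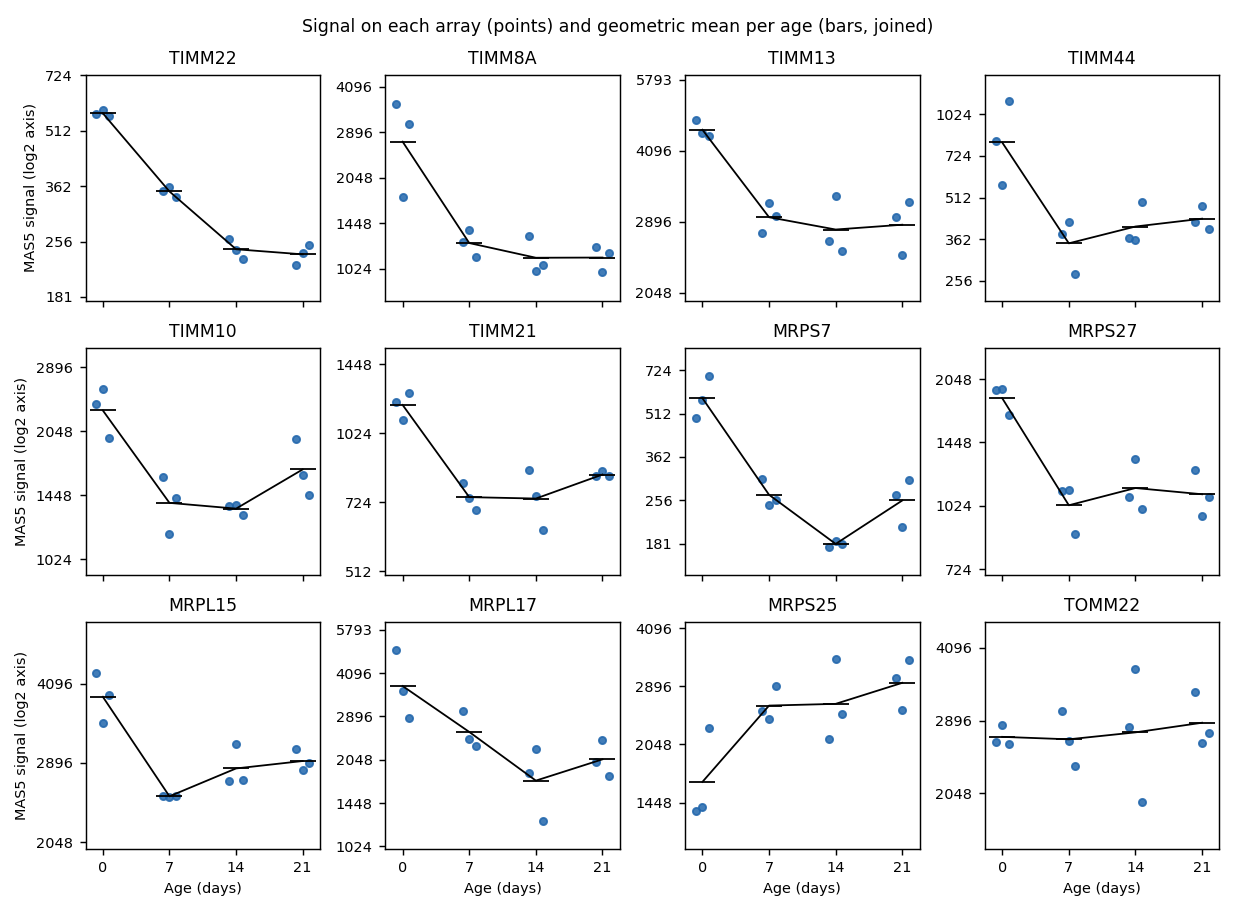
MAS5 signal (log2 axis) by age in days for 12 members, with 1 point per array and a bar at the geometric mean of each age, joined by a line. TIMM22, TIMM8A, TIMM13, TIMM44, TIMM10, TIMM21, MRPS7, MRPS27 and MRPL15 have all later points below day 0, MRPL17 overlaps at day 7, MRPS25 rises, and TOMM22 overlaps at all ages.

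The difference was already present at day 7. Between day 0 and day 7, 64 of the 76 members had a lower mean (84.2%, against 50% of all probe sets), with a median of -0.32 against 0 for all probe sets. Of the members, 12 were called lower (15.8%, against 3.64% of probe sets) and 0 higher (against 5.76%). This comparison shares the day 0 arrays with that of day 21 and is no separate evidence. By role, 2 of 37 large subunit genes, 3 of 22 small subunit genes, 7 of 11 TIMM genes and 0 of 6 TOMM genes were called lower, with medians of -0.31, -0.32, -0.62 and -0.14. At an unadjusted p under 0.05, 30 of the 76 members and 3620 of the 14399 probe sets passed. The count of 12 fell to 6 without day 0 replicate 2, 5 without day 7 replicate 1, 4 without replicate 2 and 1 without replicate 3, and to 2 with the poly-A ratio as a covariate. Over all probe sets the share called in either direction fell in the same fits, from 9.4% to 5.06%, 3.67%, 3.42%, 3.95% and 1.59% in that order. Only the count without day 7 replicate 3, as a share of the 76 members, lay below its share over all probe sets.

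Among the calls of the first week TIMM44 had the deepest fall, at -1.21 ± 0.26 (adjusted p = 0.0142), followed by TIMM8A (-1.11 ± 0.23, adjusted p = 0.0127) and MRPS7 (-1.11 ± 0.21, adjusted p = 0.00792). MRPS22 fell by 0.90 ± 0.26 (adjusted p = 0.0438), MRPS27 by 0.85 ± 0.17 (0.0116), TIMM22 by 0.71 ± 0.17 (0.0235) and TIMM13 by 0.62 ± 0.15 (0.0268). Without day 7 replicate 3 the calls ended on TIMM44 (-1.02), TIMM8A (-1.04), MRPS22 (-0.71), MRPS27 (-0.73), TIMM22 (-0.68) and TIMM13 (-0.62). Those on MRPS22, TIMM22 and TIMM13 also ended without day 7 replicate 1 (-0.99, -0.71 and -0.56), without day 7 replicate 2 (-1.01, -0.73 and -0.67) and without day 0 replicate 2 (-0.90, -0.69 and -0.63). Those on MRPS22 and TIMM13 further ended without day 0 replicate 1 (-0.69 and -0.58), and that on MRPS22 without any 1 of day 14 replicates 1 and 2 and day 21 replicates 1 and 3. The call on MRPS7 held without any single array and ended with the poly-A ratio as a covariate (-1.12), which also ended those on MRPS27 (-0.78), MRPS22 (-0.99), TIMM22 (-0.65) and TIMM13 (-0.58). The adjusted p ran from 0.00627 to 0.0591 for TIMM44, 0.0044 to 0.0576 for TIMM8A, 0.00248 to 0.0699 for MRPS7, 0.0146 to 0.165 for MRPS22, 0.00374 to 0.109 for MRPS27, 0.00839 to 0.157 for TIMM22 and 0.00493 to 0.17 for TIMM13.

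Another 5 members were called at day 7 and not at day 21. MRPL15, a core large subunit protein, gave 4291.8, 3454 and 3902.5 at day 0, 2509, 2491.1 and 2511.3 at day 7, and 3077.9, 2802.9 and 2889.9 at day 21, with changes of -0.63 ± 0.14 (adjusted p = 0.0158) and then -0.40 ± 0.14 (adjusted p = 0.0739). TIMM10 gave 2371.8, 2566.2 and 1974.5 at day 0, 1594.9, 1175.7 and 1428.3 at day 7, and 1961.1, 1619.2 and 1452 at day 21, and its day 7 change was -0.72 ± 0.17 (adjusted p = 0.0235). TIMM21 was at 799.5, 739.5 and 695.4 on day 7 (-0.67 ± 0.16, adjusted p = 0.0241). MRPL10, at the base of the stalk where translation factors dock, went from 1065.3, 1494.3 and 1405.2 to 678.9, 764.4 and 924.9 (-0.74 ± 0.22, adjusted p = 0.0484), and had a day 21 change of -0.59 ± 0.22. TIMM10B went from 1056.6, 1175.7 and 1186.5 to 879.4, 666.5 and 765.5 (-0.57 ± 0.17, adjusted p = 0.0469), and was back at 1084.9, 1042.3 and 1211.8 on day 21.

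These 5 day 7 calls also depended on single arrays. The calls on MRPL15 (-0.63 to -0.62) and TIMM21 (-0.72 to -0.62) ended without any 1 of the day 7 arrays. That on TIMM10 ended when day 0 replicate 2 or day 7 replicate 2 or 3 was left out (-0.74 to -0.60). That on MRPL10 ended without day 0 replicate 2 or 3, any day 7 array, day 14 replicate 2 or 3 or any day 21 array (-0.86 to -0.64). That on TIMM10B ended without any 1 of the 12 arrays (-0.67 to -0.47). Over all alternatives the adjusted p ran from 0.00568 to 0.0735 for MRPL15, 0.00879 to 0.109 for TIMM21, 0.01 to 0.193 for TIMM10, 0.0159 to 0.29 for MRPL10 and 0.0097 to 0.268 for TIMM10B.

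After the first week no member was called. Between day 7 and day 14 the median was -0.08, and 49 of 76 members had a lower mean (64.5%, against 48.4% of probe sets). No member was called, against 0.00694% of probe sets (1 probe set), and 4 members passed an unadjusted p of 0.05 (5.26%, against 5.95%). These 4, named after their values were seen, were MRPS7 (-0.57 ± 0.21), MRPL17 (-0.56 ± 0.24), TIMM22 (-0.52 ± 0.17) and MRPL24 (1.13 ± 0.38), with adjusted p-values from 0.679 to 0.805. MRPL24 gave 187.5, 153.6 and 67.6 at day 7 and 268.4, 258.8 and 291.9 at day 14, and its day 7 replicate 3 was the lowest of all its arrays. Between day 14 and day 21 the median was 0.07, and 57 of 76 members had a higher mean (75%, against 51.3% of probe sets). No member and no probe set was called (0%), and 4 members passed an unadjusted p of 0.05 (5.26%, against 3.03%). They were MRPL4 (0.56 ± 0.24), MRPS7 (0.50 ± 0.21), MRPL45 (0.40 ± 0.17) and TIMM10B (0.37 ± 0.17), each with an adjusted p of 1. The number of members with a lower mean at day 21 than at day 14 was 19, and it ran from 9 without day 21 replicate 2 to 30 without replicate 3 and 32 without replicate 1.

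Over all 4 ages together, 10 of 76 members changed in the limma F test (13.2%, against 8.88% of probe sets). They were TIMM22 (adjusted p = 0.00247), MRPS7 (0.00284), TIMM8A (0.00959), MRPS27 (0.0224), TIMM13 (0.0259), TIMM44 (0.0328), TIMM10 (0.036), MRPL17 (0.0408), TIMM21 (0.0408) and MRPL15 (0.0451), so 6 of the 11 TIMM genes. With the lowest 60% of probe sets left out instead of 40%, 10 of 74 members were called, against 13.5% of probe sets. Among these brighter probe sets the shares were thus about equal. The calls on TIMM22 and TIMM8A held under all 23 alternatives, with an adjusted p up to 0.0401 and 0.042. That on MRPS7 ended with the poly-A ratio as a covariate (0.0556). The other 7 each ended without day 0 replicate 1, at an adjusted p from 0.0685 for MRPS27 to 0.116 for MRPL15, and 6 of them also without day 0 replicate 2. The count of members was 4 without day 0 replicate 1 or 2, 5 without day 7 replicate 3, and 6 without any 1 of day 7 replicates 1 and 2, day 14 replicates 1 and 3 and day 21 replicates 1 and 3. Over all probe sets the share called in these fits ran from 3.93% to 7.15%. Without day 0 replicate 1 it was 5.67%, above the share of members called (4 of 76).

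Several genes had more than 1 probe set, and not all of these moved alike. MRPL33, a small protein of the large subunit, was represented by a probe set with a mean signal of 2770 and a change of -0.29 ± 0.16 to day 21 (adjusted p = 0.275), while its other probe set (mean signal 837) gave -1.25 ± 0.22 (adjusted p = 0.00386). The other probe sets of TIMM44 gave -0.09 ± 0.26 (adjusted p = 0.861) and -1.18 ± 0.40 (adjusted p = 0.0718). The second probe set of MRPL2 gave -0.41 ± 0.18 and that of MRPL35 -0.13 ± 0.26, and neither was called. TIMM50 gave -0.47 ± 0.17 on its second probe set (adjusted p = 0.093) against 0.00 on its first. No member had probe sets called in opposite directions. When all probe sets of a gene were averaged instead, the day 21 calls on MRPL35 (-0.37), MRPS12 (-0.63) and TIMM44 (-0.73) ended. So did the day 7 call on TIMM44 (-0.87) and its call in the limma F test (adjusted p = 0.142).

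Values of 2 related gene sets on the same arrays stand beside these, and the difference between sets was not tested. The 59 tested proteins of the cytosolic ribosome had a median change of -0.08 to day 21, with 44 lower, 0 called higher and 2 called lower. At day 7, 51 of these 59 were lower, beside 64 of the 76 members, with medians of -0.14 and -0.32. A lower mean after birth was thus not particular to the members. The 60 subunits of the respiratory chain and ATP synthase had a median change of 0.06 to day 7, with 35 higher. To day 21 it was 0.17, with 44 higher, 5 called higher and 1 called lower. Of all probe sets 6.61% were called higher and 4.9% lower, so the count of 5 in 60 is near the background. On the day 0 arrays their mean deviation was -0.24, -0.20 and 0.27, so that day 0 replicate 3 lay apart from the others, while the 3 values of the mitochondrial ribosome and import genes lay between 0.22 and 0.27.

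**Figure D4:**
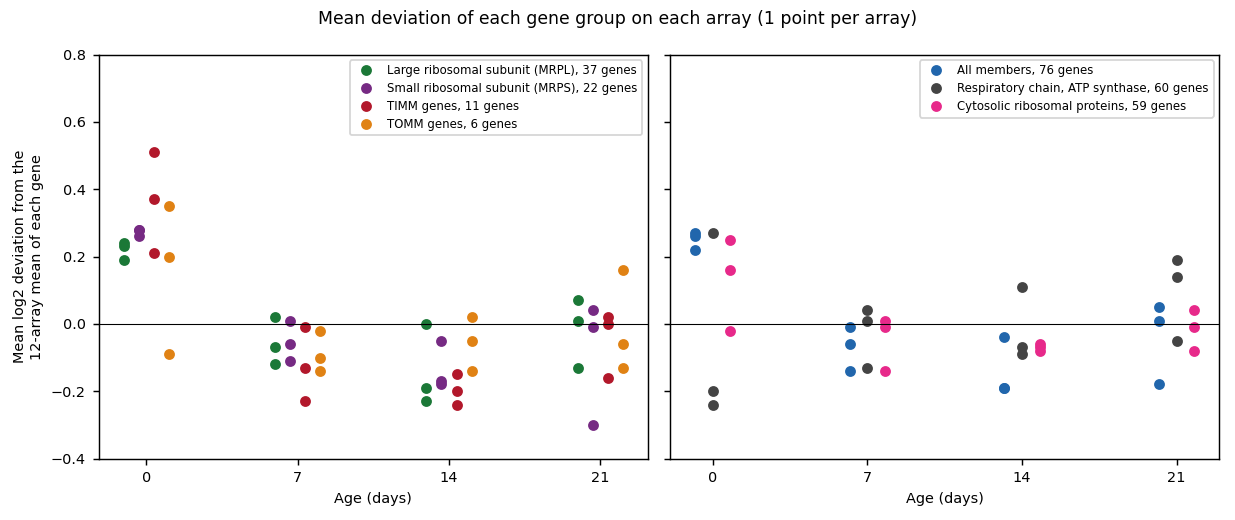
Mean log2 deviation of a gene group from its genes' 12-array means, with 1 point per array, by age in days. On the left the large subunit, small subunit and TIMM groups lie at 0.19 or higher on all day 0 arrays and the TOMM group does not; on the right all members together are set beside the respiratory chain with ATP synthase and the cytosolic ribosomal proteins.

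Genes that work beside the members were taken from 7 further lists. Of 19 tested import partners, processing peptidases and mitochondrial chaperones, 5 were called lower and 0 higher at day 21, and 6 lower and 1 higher at day 7, with medians of -0.38 and -0.40. Beside this and the lists that follow, 4.9% of all probe sets were called lower and 6.61% higher at day 21, and 3.64% and 5.76% at day 7. HSPA9, the matrix chaperone that TIMM44 anchors, gave 16353.4, 15138.9 and 12632.1 at day 0, 6399.7, 6834.2 and 7197.6 at day 7, and 8197.7, 6953.6 and 7558.6 at day 21. Its day 0 arrays lay far above the rest, with changes of -0.95 ± 0.13 at day 21 (adjusted p = 0.00136) and -1.10 ± 0.13 at day 7 (adjusted p = 0.000982), and both calls held under all 24 alternatives. HSPD1, the matrix chaperonin, changed by -1.13 ± 0.16 (adjusted p = 0.00144) and -0.90 ± 0.16 (adjusted p = 0.00583), and its partner HSPE1 by -0.61 ± 0.13 (adjusted p = 0.0125) and -0.53 ± 0.13 (adjusted p = 0.0284). PMPCB, a subunit of the peptidase that removes presequences, changed by -0.50 ± 0.13 (adjusted p = 0.0232) and -0.52 ± 0.13 (adjusted p = 0.0262).

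Both calls on HSPD1 held without any single array, and that at day 7 ended with the poly-A ratio as a covariate (-0.85, adjusted p = 0.0699). The day 21 call on HSPE1 ended with that covariate (-0.51) or with only the compared ages fitted, over an adjusted p from 0.00194 to 0.0749. Its day 7 call ended without day 0 replicate 1 or 2 or any day 7 array (-0.58 to -0.45), over a range of adjusted p from 0.00686 to 0.246. The calls on PMPCB ended without any 1 of the later arrays compared, that is day 21 (-0.52 to -0.48, 0.00356 to 0.126 over the alternatives) and day 7 (-0.53 to -0.51, 0.00795 to 0.107). The remaining calls of this list, named after their values were seen, were GRPEL1 (-0.62 ± 0.18 at both ages), PMPCA (-0.77 ± 0.21 at day 7) and ROMO1, a small inner membrane protein and the 1 that rose (0.67 ± 0.17 at day 7). They ended under 12 (day 21) and 17 (day 7) alternatives for GRPEL1, 10 for PMPCA and 10 for ROMO1. For GRPEL1 these included leaving out day 0 replicate 1 (-0.44 at day 21, -0.43 at day 7), any array of the later age compared, and, of the ages not compared, day 7 replicate 2 or 3 and day 14 replicate 1 or 3 (for day 21) or any day 14 or day 21 array (for day 7). For PMPCA they included day 0 replicate 2 (-0.59) or 3, any day 7 array, day 14 replicate 1 and day 21 replicate 3, and for ROMO1 day 0 replicate 1 (0.62) or 3 (0.60), any day 7 array and scaling on the hybridization controls (0.36). The adjusted p ran from 0.00685 to 0.128 and from 0.0146 to 0.145 for GRPEL1, 0.00789 to 0.387 for PMPCA and 0.0214 to 0.127 for ROMO1.

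Of 8 tested mitochondrial translation factors all had lower means at both ages (medians -0.22 and -0.44), and TUFM, the elongation factor that brings transfer RNAs to the ribosome, was the 1 called. It gave 4662.1, 3754.1 and 4074.3 at day 0, 3068.3, 2455.4 and 2167.7 at day 7, and 3229.1, 2146 and 2489.2 at day 21, with changes of -0.68 ± 0.18 at day 21 (adjusted p = 0.0285) and -0.71 ± 0.18 at day 7 (adjusted p = 0.0304). These calls ended without day 0 replicate 1 (-0.60 and -0.62), and without day 21 replicate 2 or 3 (-0.55 and -0.66) and day 7 replicate 2 or 3 (-0.69 and -0.60) respectively, over ranges of adjusted p of 0.00373 to 0.0974 and 0.00742 to 0.112. None of 5 further ribosome subunits was called with limma (median -0.21 at day 21). Of 13 assembly factors, YBEY was called lower at day 7 (-0.94 ± 0.24, adjusted p = 0.0294). That call ended when replicate 2 or 3 of day 0, or 1 or 3 of day 7, was left out (-0.90 to -0.74, 0.00925 to 0.163). It also ended when all probe sets of the gene were averaged (-0.72).

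Of 14 genes of mitochondrial DNA transcription and RNA handling, 2 were called lower at each age. MTPAP, which adds the tails of mitochondrial messenger RNAs, gave 548.9, 556.7 and 553.4 at day 0, 335.7, 312 and 363.8 at day 7, and 368.5, 299.7 and 302.3 at day 21. It changed by -0.78 ± 0.19 at day 21 (adjusted p = 0.0176) and by -0.72 ± 0.19 at day 7 (adjusted p = 0.0314). PNPT1, which degrades mitochondrial RNA, changed by -1.0 ± 0.29 at day 21 (adjusted p = 0.0392), and ELAC2, which trims transfer RNAs, by -0.67 ± 0.19 at day 7 (adjusted p = 0.0435). Of 4 proteases LONP1 was called lower at day 7 (-0.67 ± 0.16, adjusted p = 0.0262), and of 7 regulators of mitochondrial biogenesis PPRC1, a coactivator, at day 21 (-0.87 ± 0.25, adjusted p = 0.0389).

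The day 21 call on MTPAP ended without day 21 replicate 2 or 3 (-0.73 each), and its day 7 call without day 0 replicate 1 or 2 or any day 7 array (-0.77 to -0.66). Without day 0 replicate 1, the high one of its day 0 arrays, PNPT1 was at -0.66. Its call also ended without any 1 of day 7 replicates 2 and 3, day 14 replicates 1 and 2 and day 21 replicates 2 and 3 (-1.0 to -0.89). That on ELAC2 ended without any day 0, day 7 or day 21 array (-0.71 to -0.60). It also ended when all probe sets of the gene were averaged (-0.67). That on LONP1 ended without day 0 replicate 2 or any day 7 array (-0.73 to -0.55). That on PPRC1 ended without day 0 replicate 1 or 3, day 14 replicate 1, or any day 7 or 21 array (-0.97 to -0.67). The adjusted p ran from 0.00529 to 0.07 and from 0.0139 to 0.132 for MTPAP, 0.0113 to 0.13 for PNPT1, 0.0109 to 0.198 for ELAC2, 0.00831 to 0.22 for LONP1 and 0.0136 to 0.133 for PPRC1.

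Of 13 defining markers of skeletal muscle 9 were measured, all of them past the filter, with a summed signal of 241897 to 319169 at day 0 and 307978 to 402810 at day 21. RYR1 (0.9 ± 0.19, adjusted p = 0.00872) and TNNT3 (0.52 ± 0.14, adjusted p = 0.0297) were called higher at day 21. DES was called lower at day 7 (-0.49 ± 0.14, adjusted p = 0.0469). Markers of other cell types differed in how they moved, within a list too. The summed signal of 10 of 11 endothelial markers was 6142 to 6987 at day 0, 9847 to 11020 at day 7 and 7262 to 10760 at day 21. At day 21 CDH5 (1.22 ± 0.23), CLDN5 (1.10 ± 0.26) and TIE1 (0.86 ± 0.25) among them were called higher and ENG (-1.06 ± 0.20) lower (adjusted p from 0.00555 to 0.0445). That of 9 of 12 macrophage markers was 2281 to 3230, 3321 to 5059 and 2454 to 4886 at the same ages, with LAPTM5 called higher at day 21 (1.55 ± 0.32, adjusted p = 0.00944) and MRC1 (-1.01 ± 0.32, adjusted p = 0.0584) and CD163 (-0.93 ± 0.41, adjusted p = 0.161) not called. That of 4 of 8 erythroid markers was 1494 to 2586, 1014 to 1274 and 1659 to 2558. Among them HBB was called lower at day 7 (-0.98 ± 0.24, adjusted p = 0.0235) and day 21 (-0.84 ± 0.24, adjusted p = 0.0349). ALAS2 was called higher at day 21 (1.4 ± 0.27, adjusted p = 0.00656). The lymphocyte marker CCL5 was called higher at day 7 (2.03 ± 0.46, adjusted p = 0.0182) and day 21 (3.33 ± 0.46, adjusted p = 0.00136), and JCHAIN was not called. No fibroblast, adipocyte or nerve marker was called at day 7 or day 21 with limma, and the lowest adjusted p among them was 0.0717 (S100B, day 21). For fibroblasts (6 of 8 markers) the day 0 and day 21 ranges were 19233 to 40368 and 17289 to 44915, for adipocytes (5 of 7) 5707 to 8858 and 6598 to 7735, for lymphocytes (7 of 9, only 2 past the filter) 249 to 387 and 321 to 702, and for nerve (3 of 6) 1042 to 5742 and 1373 to 1745. The part of these cell types and of the day 0 control measures in the falls of the mitochondrial genes was not tested.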

How the data were processed

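Per the labels' protocols, frozen muscle gave total RNA (Trizol) for biotin-labelled cRNA on 12 arrays. The authors deposited 1 linear intensity per probe set and array, computed with MAS5 per the submitters' processing notes, with the version not given in the sources used here. Of 24123 probe sets, 124 controls and the lowest 40% of the rest by mean log2 signal (limit 90.3) were left out. Arrays were not normalized further, because their trimmed means were equal.

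Symbols came from the platform annotation, in which 10140 probe sets carry 1 symbol, 157 several and 13826 none; 76 of 77 members matched RefSeq by Entrez identifier, with 0 symbols changed, and 5 probe sets naming MRPL55 together with another gene were left out. Age means were fitted to all 12 arrays in limma 3.58.1 (R 4.3.3) with eBayes and a variance trend, after tests on simulated data. The number of arrays limits the precision.

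Members, set by their symbols and not by their values, and lists were chosen with earlier results of these data known. Named were members called in the F test or a contrast, all TIMM and TOMM genes, in each ribosomal subunit the 4 largest rises, the 4 largest falls and the smallest change to day 21, and per list up to 4 genes called in a contrast, in order of F test p. Figures were drawn with matplotlib 3.10.9.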

Additional observations from a re-analysis of the deposited data

How the results depend on the processing

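In the fit reported 12 members were called at day 21, 12 at day 7 and 10 in the F test. The shares called in either direction over all probe sets were 11.5%, 9.4% and 8.88%. Scaling on the hybridization controls gave 43, 31 and 34 (against 20%, 13.8% and 14.6%), with medians of -0.67 and -0.63. Median centring gave medians of -0.39 and -0.42. Quantile normalization gave 11, 9 and 7 (against 11.4%, 8.81% and 8.61%), with medians of -0.24 and -0.3. With the lowest 60% of probe sets left out, 14, 12 and 10 of 74 members were called (against 17.3%, 13.4% and 13.5%). Without a variance trend the counts were 7 at day 21, 8 at day 7 and 4 in the F test (against 9.65%, 7.21% and 5.68%). With array weights they were 7 at day 21, 9 at day 7 and 3 in the F test (against 8.3%, 6.87% and 5.29%). With the poly-A ratio as a covariate they were 7 at day 21, 2 at day 7 and 3 in the F test (against 5.85%, 1.59% and 0.861%). With only the compared ages fitted they were 3 at day 21 and 2 at day 7 (against 4.1% and 3.31%). Without a variance trend the counts at day 21 and in the F test were below these shares, and that at day 7 was above. Those with only the compared ages fitted, and in the F test with array weights, were also below. With the replicate number as a replicate block they were 9 at day 21, 9 at day 7 and 5 in the F test (against 10%, 7.1% and 6.24%). Deviations of arrays of the same number had an r from -0.20 to 0.11 over 18 pairs, above 0.1 in 2. For arrays of different numbers r ran from -0.18 to 0.24 over 36 pairs, above 0.1 in 8. The labels do not say whether the numbers pair the samples, and with 3 arrays per age these values cannot settle it. Leaving out 1 array gave 4 to 12 members called at day 21, 1 to 14 at day 7, 4 to 10 in the F test and 0 in both later weeks. In these fits the shares over all probe sets ran from 5.48% to 14% at day 21, 3.42% to 11.6% at day 7 and 3.93% to 9.63% in the F test. At day 21 the members' share lay below that of all probe sets without day 21 replicate 2 or 3. The same held at day 7 without day 7 replicate 3, and in the F test without day 0 replicate 1. With 1 array left out, the number with a lower mean was 52 to 64 at day 21 and 58 to 65 at day 7. It was 46 to 54 from day 7 to day 14 and 9 to 32 from day 14 to day 21. The medians were -0.36 to -0.23, -0.36 to -0.26, -0.12 to -0.05 and 0.02 to 0.16. The causes of these shifts were not tested. Of the 24 calls on named members in the contrasts, 3 held under every alternative (TIMM22, TIMM8A and MRPS7 at day 21), 21 ended under at least 1, and 0 reversed. Of 120 values not called, 50 changed sign under some alternative and 16 gained a call. With 3 arrays per age, the number of arrays limits what can be called.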
